A study of Bos taurus with 21 samples.

Results

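Endometrium from heifers without a conceptus was compared between day 16 and day 13 of the oestrous cycle. The comparison used 10 of the 20 heifers of the study: cyclic heifers 3, 7, 15, 16 and 17 at day 16 and cyclic heifers 5, 8, 10, 13 and 18 at day 13, chosen by their sample labels. The animals of all groups were cross-bred beef heifers, mainly Charolais and Limousin crosses, whose cycles had been synchronised with a vaginal progesterone device and an analogue of prostaglandin. The cyclic heifers had not been inseminated. The other 10 were inseminated heifers with a recovered conceptus, 5 at each day, and entered only as described below. RNA was taken, after flushing, from the uterine horn beside the corpus luteum, mostly from intercaruncular tissue, which lies between the sites of placental attachment. Gene expression was measured by single-read RNA sequencing and deposited as read counts per Ensembl bovine transcript identifier.

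Both days lie in the luteal phase, when the corpus luteum secretes progesterone and the uterine glands secrete into the lumen. Prolonged progesterone lowers its own receptor in the uterine epithelium. Late in a cycle without a conceptus, oestrogen and oxytocin receptors appear there, and the endometrium releases prostaglandin in pulses that end the life of the corpus luteum. Comparing the 2 days in cyclic heifers asks what the lining does over the later luteal phase when no conceptus is present.

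The files do not pair the transcript identifiers with gene names, and 0 of 28054 identifiers were found in the RefSeq gene table at hand. Transcripts are therefore described by abundance, size of change and behaviour across heifers, and 4 are given by identifier. For the same reason the tissue could not be checked against marker genes, and a change in cell numbers cannot be told apart from a change in RNA per cell in these bulk samples. Total counts ranged from 2135029 to 3049437 per cyclic heifer, so that 3 counts corresponded to 0.984 to 1.41 CPM (counts scaled to a common library size, the usual CPM unit of edgeR), and scaling factors lay between 0.989 and 1.02. All 45 pairs of cyclic libraries differed by more than counting error, with chi-square divided by its degrees of freedom at 3.61 or more. Over the 500 transcripts most variable among the 10 cyclic heifers, the first principal component held 33.9% of the variance. Scores on it ran from -18.96 to -6.51 at day 13 and from 7.23 to 17.7 at day 16. Cyclic day 13 heifer 5 lay nearest to the day 16 heifers on this component and stood apart from its group in several results below.

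The deposited file names carry a run code, here given as letters A to D; the labels do not say what the code records. At day 13, 1 cyclic heifer was in run A, 3 in run B and 1 in run C, and at day 16, 1 was in run A, 3 in run C and 1 in run D. The letter and the day thus overlapped in part, and only runs A and C held cyclic heifers of both days.

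More transcripts fell than rose between day 13 and day 16. Of 14807 transcripts tested, 202 (1.36%) were lower and 85 (0.574%) were higher at day 16, 1.94% in either direction (edgeR quasi-likelihood test, adjusted p under 0.05). Over all transcripts the log2 fold change had a median of 0.0042, and an unadjusted p under 0.05 was reached by 1218 lower and 1131 higher transcripts. At that looser threshold the numbers in the 2 directions were close to each other. The 5 day 16 heifers all lay below the 5 day 13 heifers for 135 of the 202 falling transcripts, and all above them for 63 of the 85 rising ones. Over all transcripts tested, 2.19% separated the heifers with day 16 lower and 1.44% with day 16 higher.

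These counts moved with single heifers. Without cyclic day 13 heifer 5, 184 transcripts were higher and 269 lower. Leaving out any other day 13 heifer left 48 to 51 higher ones, namely 51 without heifer 8, 49 without heifer 10, 51 without heifer 13 and 48 without heifer 18. Without cyclic day 16 heifer 3 there were 50 higher and 120 lower, and without heifer 17 there were 61 and 132. DESeq2 called 173 higher and 312 lower transcripts, among them all 287 of the edgeR calls. In the alternative fits run, none of the 287 that was tested changed direction.

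Among falling transcripts the most abundant at day 13 was ENSBTAT00000005988, which ranked 16 of the 14807 by abundance. At day 13 it had 3264 CPM in heifer 5, 3130 in heifer 8, 3415 in heifer 10, 3131 in heifer 13 and 2204 in heifer 18. At day 16 it had 968 CPM in heifer 3, 1527 in heifer 7, 951 in heifer 15, 1164 in heifer 16 and 1098 in heifer 17. The 2 days did not overlap. Means were 3029 ± 476 CPM at day 13 and 1142 ± 233 CPM at day 16 (SD, n = 5 each), which gave a log2 fold change of -1.41 (SE 0.18, adjusted p = 4.03e-05 by edgeR).

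Largest in fold among the falling transcripts whose days did not overlap was ENSBTAT00000020274, a rare transcript. At day 13 it had 0.802 CPM in heifer 5, 11.6 in heifer 8, 1.78 in heifer 10, 4.85 in heifer 13 and 4.44 in heifer 18. At day 16 it had 0 counts in heifers 3, 7 and 16 and 1 count each in heifers 15 and 17, at 0.364 and 0.382 CPM. It was thus near the floor in every day 16 heifer and in day 13 heifer 5. With 57 counts in all at day 13 and 2 at day 16, the ratio of the days was 28.9 (95% exact interval 7.64 to 244, counting error only). The fitted log2 fold change was -4.52 (SE 0.95, adjusted p = 0.0100 by edgeR), a value that depends on the prior count. It was -4.80 without heifer 5 and -3.94 without heifer 8. A second identifier had the same counts in every heifer, so these reads cannot be assigned to ENSBTAT00000020274 alone.

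ENSBTAT00000004084 was the largest in fold among the rising transcripts whose days did not overlap. It had 0 counts in day 13 heifers 10 and 18, 0.466 CPM in heifer 8, 0.802 in heifer 5 and 4.10 in heifer 13. At day 16 it had 9.85 CPM in heifer 7, 18.2 in heifer 15, 22.7 in heifer 16, 29.7 in heifer 3 and 41.2 in heifer 17. It was close to absent in 4 of 5 day 13 heifers and present in every day 16 heifer. Means were 1.07 ± 1.73 CPM at day 13 and 24.3 ± 11.9 CPM at day 16 (SD, n = 5 each), which gave a log2 fold change of 4.43 (SE 0.84, adjusted p = 0.00617 by edgeR). Without heifer 13 it was 6.15 (adjusted p = 0.00314 by edgeR), and over the alternatives run it ranged from 3.83 to 6.58.

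ENSBTAT00000009998, the most abundant rising transcript at day 16, changed far less in fold. At day 13 it had 526 CPM in heifer 5, 354 in heifer 8, 341 in heifer 10, 351 in heifer 13 and 418 in heifer 18. At day 16 it had 742 CPM in heifer 3, 614 in heifer 7, 674 in heifer 15, 686 in heifer 16 and 698 in heifer 17. Heifer 5 was the highest at day 13 and still below every day 16 heifer. The log2 fold change was 0.78 (SE 0.17, adjusted p = 0.0158 by edgeR). Without heifer 5 it was 0.90. Means were 398 ± 77.7 CPM at day 13 and 683 ± 46.3 CPM at day 16 (SD, n = 5 each).

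**Figure D1:**
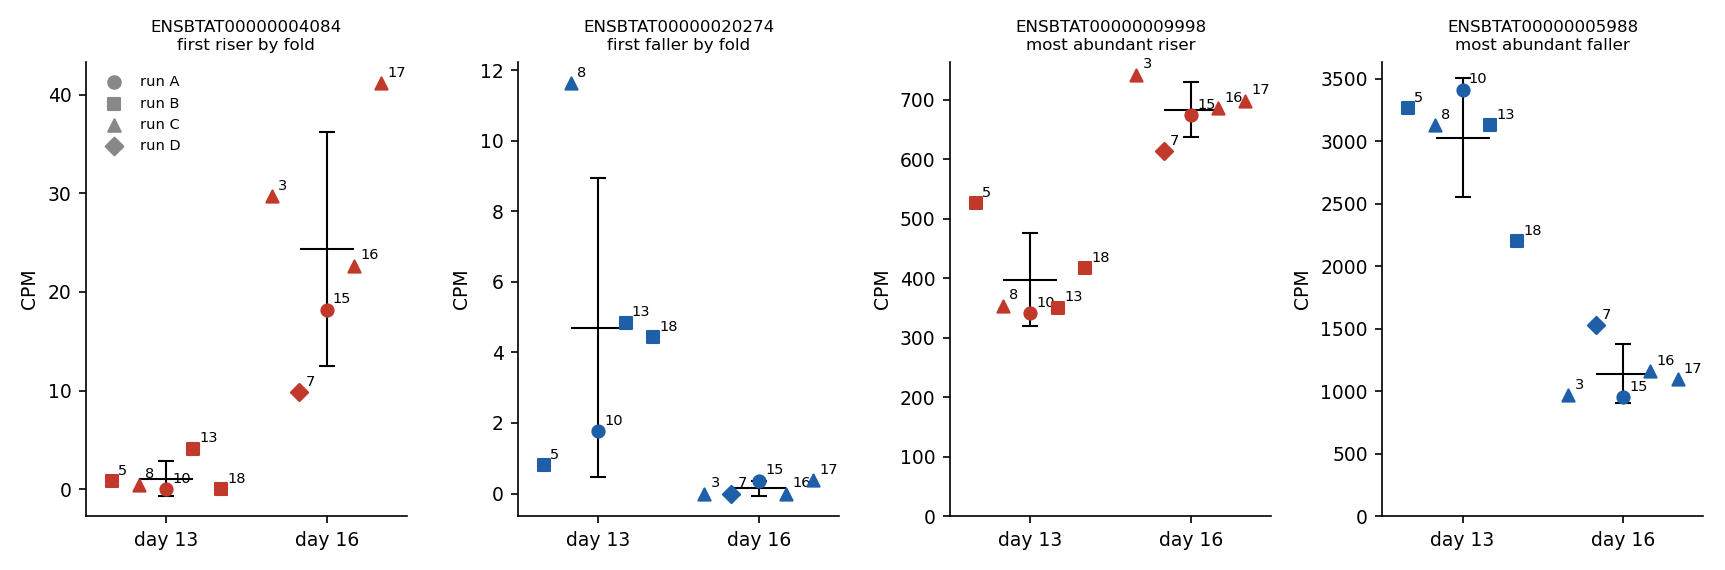
CPM of 4 transcripts in each cyclic heifer at day 13 and day 16 on linear axes, with heifer numbers beside the points, the run letter as point shape, and the mean ± SD of 5 heifers in black. The days do not overlap in any panel; ENSBTAT00000005988 fell from a mean of 3029 to 1142 CPM and ENSBTAT00000009998 rose from 398 to 683 CPM.

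Falling transcripts were called more often among abundant transcripts, while the rising share was similar in every class. Abundance was the mean CPM over the 10 cyclic heifers. Among 2416 transcripts over 100 CPM, 58 fell (2.40%) and 13 rose (0.538%). Among 6836 transcripts between 20 and 100 CPM, 89 fell (1.30%) and 39 rose (0.571%). Between 5 and 20 CPM, 42 of 4364 fell (0.962%) and 28 rose (0.642%), and under 5 CPM, 13 of 1191 fell (1.09%) and 5 rose (0.420%). The median SE of the log2 fold change was 0.38 in the lowest class and 0.14 in the highest, so smaller changes could pass the test in abundant transcripts. With the transcripts split by abundance into 3 classes of equal size, 0.952%, 1.15% and 1.99% fell and 0.547%, 0.588% and 0.588% rose, from the least to the most abundant. The falling transcripts had a median abundance of 48.8 CPM and the rising ones 33.0 CPM, against 29.9 CPM over all tested.

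**Figure D2:**
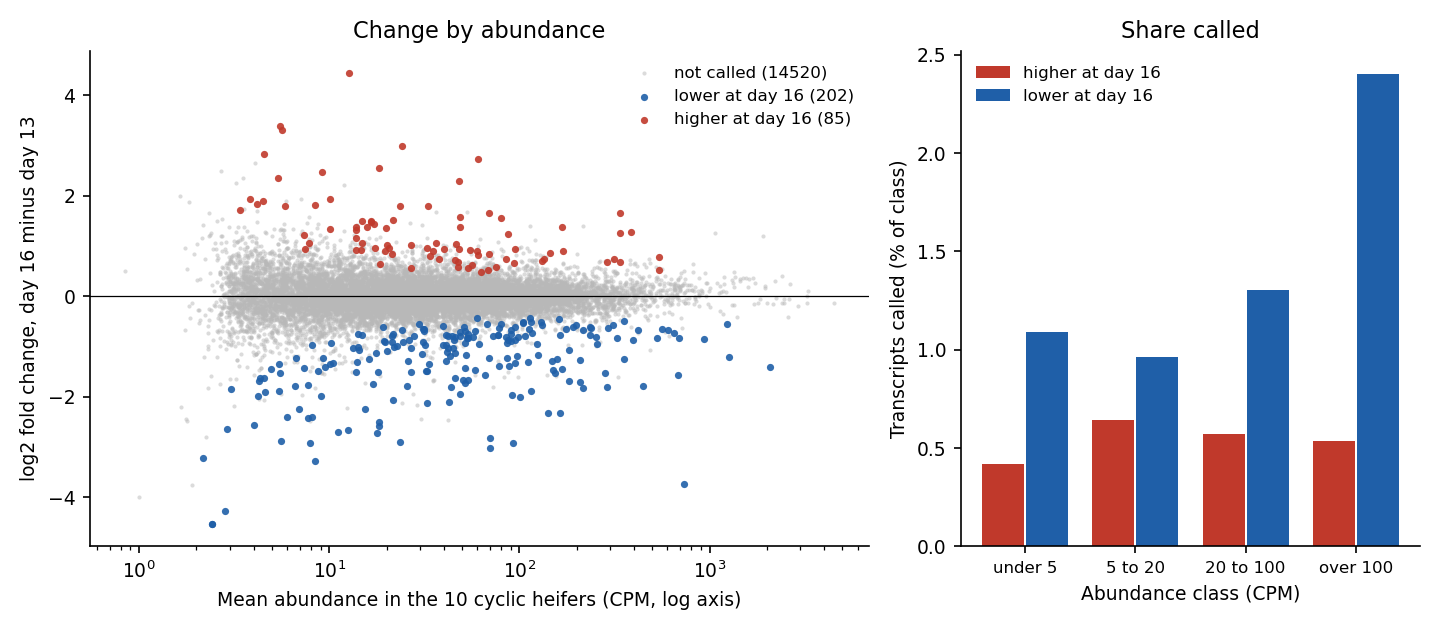
Left, log2 fold change (day 16 minus day 13) of each transcript tested against its mean CPM in the 10 cyclic heifers (log axis), with the 85 higher and 202 lower ones coloured. Right, the percentage of each abundance class called in each direction: the lower share reaches 2.40% over 100 CPM, while the higher share stays between 0.420% and 0.642%.

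Rising and falling transcripts had similar sizes of change. The median log2 fold change was 1.05 for the rising transcripts (quartiles 0.82 and 1.58) and -1.12 for the falling ones (quartiles -1.67 and -0.78). Changes under 2-fold made up 39 of the 85 rising and 90 of the 202 falling transcripts. Another 36 rising and 82 falling transcripts changed 2- to 4-fold, and 10 rising and 30 falling ones changed over 4-fold. The smallest called changes were 0.49 and -0.44 on the log2 scale. Over-4-fold changes were mostly found in transcripts of low abundance, with a median of 10.9 CPM for the 10 rising and 13.95 CPM for the 30 falling ones. No rising transcript over 100 CPM changed over 4-fold, whereas 4 falling ones of that abundance did.

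The largest fall above 100 CPM was in a transcript that had 604, 2088, 1914, 1081 and 1172 CPM in day 13 heifers 5, 8, 10, 13 and 18. It had 58.7, 68.1, 95.4, 154 and 140 CPM in day 16 heifers 3, 7, 15, 16 and 17. The days were far apart in every heifer, and heifer 5 was again the day 13 animal closest to day 16. Means were 1372 ± 617 CPM at day 13 and 103 ± 42.3 CPM at day 16 (SD, n = 5 each), which gave a log2 fold change of -3.73 (SE 0.44, adjusted p = 8.20e-05 by edgeR), and -3.92 without heifer 5. This and the following transcripts are given without identifiers and were chosen as the largest in their class after the values were seen.

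Between 20 and 100 CPM, the transcript with the largest fall had 86.2 to 169 CPM at day 13 and 5.88 to 32.0 CPM at day 16, with a log2 fold change of -3.02 (SE 0.48, adjusted p = 0.00166 by edgeR). The largest rise above 100 CPM was from 108 to 209 CPM at day 13 to 244 to 669 CPM at day 16, a log2 fold change of 1.66 (SE 0.36, adjusted p = 0.0184 by edgeR). This call was lost without heifer 10 (adjusted p = 0.0519 by edgeR) and without heifer 3 (0.0552). The largest rise between 20 and 100 CPM went from 1.20 to 12.1 CPM at day 13 to 37.8 to 80.5 CPM in 4 of the day 16 heifers. Day 16 heifer 17 had 5.72 CPM of it, inside the day 13 range, so that the days overlapped despite a log2 fold change of 2.98 (SE 0.58, adjusted p = 0.00736 by edgeR). Under 5 CPM the largest rise was from 0.401 to 2.24 CPM at day 13 to 3.36 to 13.0 CPM at day 16, a log2 fold change of 2.83 (SE 0.53, adjusted p = 0.00338 by edgeR). Between 5 and 20 CPM the largest fall was from 6.71 to 29.25 CPM at day 13 to 0.420 to 3.05 CPM at day 16. Its log2 fold change was -3.28 (SE 0.76, adjusted p = 0.0274 by edgeR). That call was lost when heifer 3, 10, 15 or 16 was left out, with edgeR adjusted p from 0.0608 to 0.0766.

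Together the 202 falling transcripts took 3.36% ± 0.407 (SD, n = 5) of the counts at day 13 and 1.59% ± 0.126 (n = 5) at day 16. The 85 rising ones took 0.416% ± 0.0495 (n = 5) at day 13 and 0.819% ± 0.0466 (n = 5) at day 16. A few abundant transcripts carried much of this: the 10 most abundant held 38.3% of the counts of the falling set and 55.6% of those of the rising set. These heifers chose both sets, so their levels are a description and no test was made.

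Heifers 5 and 3 took the end places of their days in both sets, while the order of the others changed between the sets. The mean level of the rising set at day 13 was 4.58 log2 CPM in heifer 5, 4.34 in heifer 13, 4.22 in heifers 8 and 18 and 4.02 in heifer 10. At day 16 it was 5.70 in heifer 3 and 5.40 to 5.48 in the other 4. The mean level of the falling set at day 13 was 5.69 in heifer 5, 5.996 in heifer 13, 6.01 in heifer 18, 6.16 in heifer 10 and 6.18 in heifer 8, and at day 16 it was 4.66 in heifer 3 and 4.75 to 4.91 in the others. Heifer 5 was thus the day 13 animal closest to day 16 in both sets, and heifer 3 the day 16 animal farthest from day 13 in both. Without heifer 5 the day 13 mean was 4.199 ± 0.134 for the rising and 6.08 ± 0.0973 for the falling set (SD, n = 4).

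Called transcripts whose days overlapped numbered 22 rising and 67 falling. Setting heifer 5 aside would end the overlap in 13 and 34 of these, more than for any other heifer. Day 16 heifer 15 came next, with 5 and 27. Spread within days was moderate: the falling transcripts had a median SD of 0.35 log2 units at day 13 and 0.30 at day 16, and the rising ones 0.37 and 0.38, against 0.28 and 0.26 over all tested. The SD was the larger at day 16 in 76 of the 202 falling transcripts (37.6%) and 40 of the 85 rising ones (47.1%), against 45.6% of all tested.

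To place each heifer by transcripts it had not helped to choose, the sets were chosen again without it. On a scale where 0% is the mean of the other day's 5 heifers and 100% the mean of the other 4 of its own day, heifer 5 stood at 40.2% for the rising set (184 transcripts) and 51.3% for the falling set (266 transcripts). The other day 13 heifers stood at 85% to 107% for the rising and 84.6% to 103% for the falling set. Day 16 heifers stood at 67.2% to 107% and 71.1% to 104%. Every heifer left out lay on its own day's side of all 5 heifers of the other day in both sets. The heifers that chose a set also gave its reference means, and the choice widens the gap between them. A heifer without any day change would also be expected between these means, so the separation is partly fixed by the choice. No conclusion on the day is drawn from that separation. Heifer 5 lay about midway, and the other heifers lay nearer to the mean of their own day. Filter and scaling were shared with the full data.

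**Figure D3:**
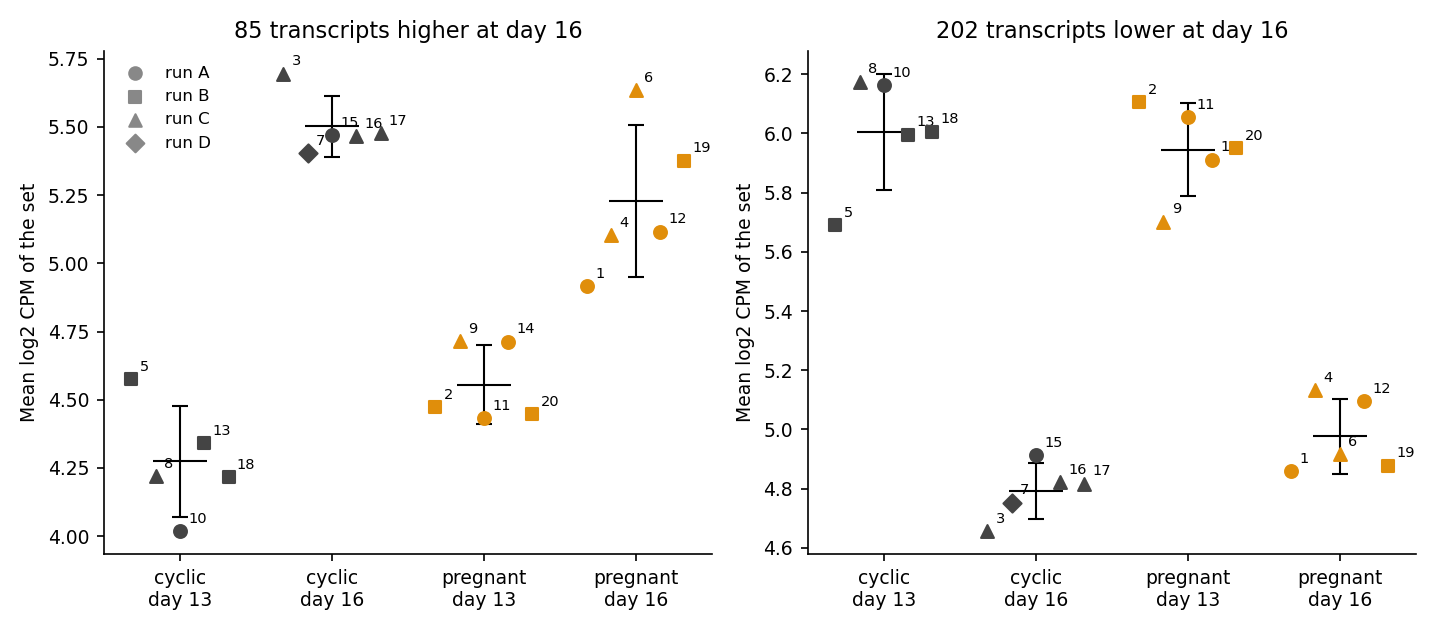
Mean log2 CPM of the 85 rising (left) and 202 falling (right) transcripts in each heifer, with heifer numbers, run letter as point shape, and the mean ± SD of 5 heifers. The cyclic heifers chose the sets; heifer 5 is the highest (4.58) and lowest (5.69) of the cyclic day 13 heifers, and the pregnant heifers, which did not enter the contrast, also separate by day.

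With the run letter as a term, 107 transcripts were lower (0.723%) and 28 were higher (0.189%) at day 16. Of the original calls, 104 of 202 falling (51.5%) and 26 of 85 rising (30.6%) transcripts were called again in the same direction, and 3 falling and 2 rising ones were called only with the term. Day 16 heifer 7 was the only animal of run D, so its own term fitted it and the contrast rested on 4 day 16 heifers. Run B held 3 cyclic day 13 heifers and no cyclic day 16 heifer. These 3 entered the contrast only through the pregnant heifers of run B, 2 at day 13 and 1 at day 16. The fit takes the run effect as equal in cyclic and pregnant heifers. Treating heifer 7 as run C gave 112 falling and 38 rising calls, 142 of them among the 287. With the term but without heifer 5, 128 fell and 63 rose, 153 of them among the 287.

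The median fold changes of the sets hardly moved with the term, while the median standard errors grew. All 85 rising and all 202 falling transcripts kept their sign and an unadjusted p under 0.05. The median log2 fold change went from 1.05 to 1.10 for the rising set and stayed at -1.12 for the falling set, while the median SE went from 0.23 to 0.29 and from 0.21 to 0.25. Single transcripts moved more: a falling one at 98.85 CPM went from -0.81 to -0.44 and one at 5.98 CPM from -2.40 to -3.17. The median ratio of the fold change with the term to that without was 1.04 for falling calls kept. It was 0.941 for falling calls lost, and 1.09 and 0.985 for rising calls kept and lost. Of the 157 calls lost, 38 had an edgeR adjusted p under 0.1 and the largest was 0.383. A lost call therefore does not show an absent change.

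Large changes were kept more often than small ones. With the term, 27 of the 30 falling and 8 of the 10 rising transcripts over 4-fold were still called. Between 2- and 4-fold these were 48 of 82 falling and 13 of 36 rising, and under 2-fold 29 of 90 and 5 of 39. By abundance, 32 of the 58 falling transcripts over 100 CPM were kept, 45 of 89 between 20 and 100 CPM, 23 of 42 between 5 and 20 CPM and 4 of 13 under 5 CPM. For the rising ones these were 2 of 13, 12 of 39, 11 of 28 and 1 of 5, so abundant rising transcripts were seldom kept. Over 100 CPM, the median change was 0.78 on the log2 scale for the 13 rising transcripts and -0.83 for the 58 falling ones. Why the shares kept differed was not tested.

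Among the 4 identified transcripts, 3 were still called with the term. ENSBTAT00000005988 had a log2 fold change of -1.51 (SE 0.21, adjusted p = 0.000587 by edgeR). ENSBTAT00000004084 had 4.05 (SE 0.83, adjusted p = 0.0216 by edgeR), and ENSBTAT00000020274 had -4.83 (SE 1.04, adjusted p = 0.0260 by edgeR). ENSBTAT00000009998, at 0.73 (SE 0.22), did not pass (edgeR adjusted p = 0.164). The abundant transcript with the largest fall passed, at -3.83 (SE 0.53, adjusted p = 0.00155 by edgeR), and the largest rise above 100 CPM did not, at 1.62 (SE 0.41, adjusted p = 0.0857 by edgeR). Between 20 and 100 CPM the largest fall passed (edgeR adjusted p = 0.0386), while the largest rise, at 3.16 (SE 0.76), did not (edgeR adjusted p = 0.0693). The largest rise under 5 CPM passed (edgeR adjusted p = 0.0271). The largest fall between 5 and 20 CPM did not, at -3.25 (SE 0.88, adjusted p = 0.116 by edgeR).

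**Figure D4:**
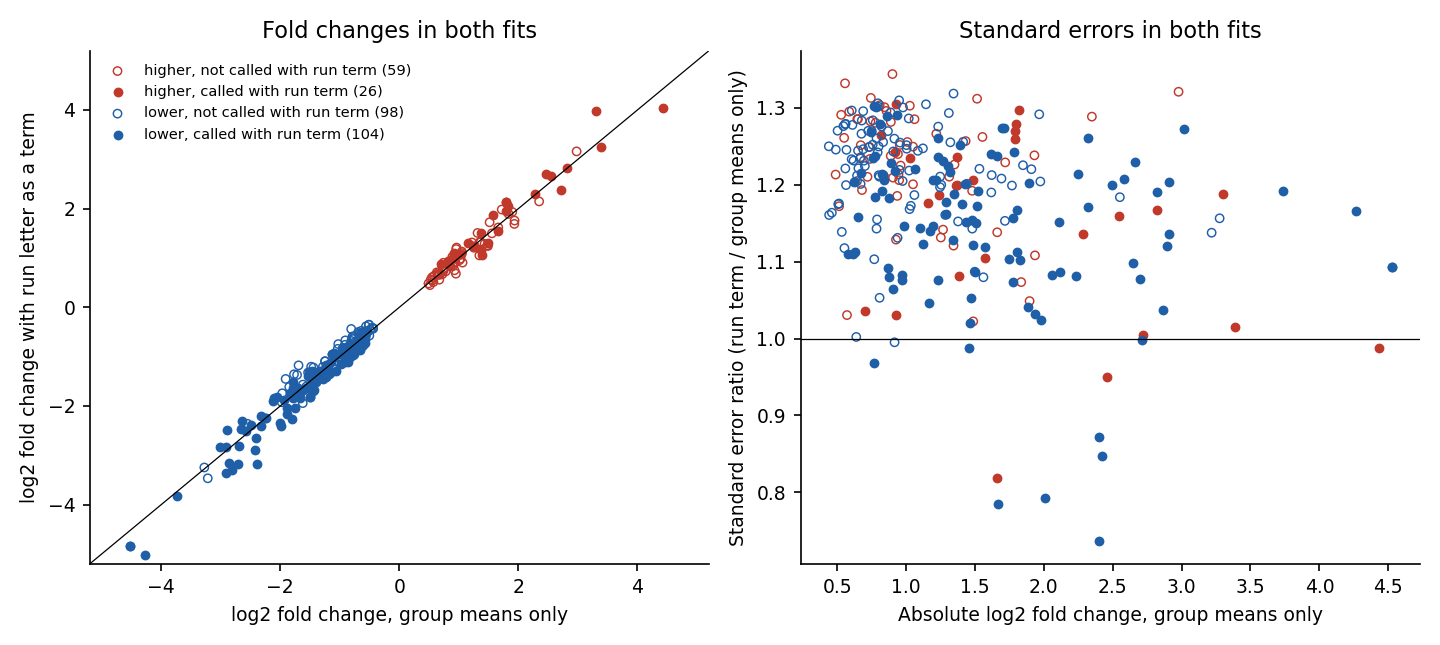
Left, log2 fold changes of the 287 called transcripts with group means only (x) and with the run letter as a term (y), with the line of equality; filled points were still called. Right, the ratio of standard errors against the absolute log2 fold change. Most points lie close to the line on the left, most ratios exceed 1, and the filled points include 27 of 30 falling transcripts over 4-fold.

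Within single runs the directions were the same. In run A, heifer 15 (day 16) against heifer 10 (day 13), 84 of the 85 rising transcripts were higher and 199 of the 202 falling ones were lower, with median differences of 1.27 and -1.17 log2 CPM. In run C, heifers 3, 16 and 17 against heifer 8, all 85 were higher and all 202 lower, with medians of 1.12 and -1.23. Over all transcripts the medians were 0.02 and -0.01. These heifers helped to choose the sets, and with 1 heifer at day 13 in each run no test was made.

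Pregnant heifers gave values of the same transcripts in animals that had not chosen them, although filter, scaling and the estimate of spread were shared. Between day 13 and day 16, 191 of the 202 falling transcripts (94.6%) were also lower in pregnant heifers and 76 of the 85 rising ones (89.4%) were also higher, against 50.3% higher over all tested. The median log2 fold change there was -0.82 for the falling and 0.56 for the rising set. With only library 1 or only library 2 of pregnant heifer 12, whose 2 libraries were otherwise summed, 92.3% and 93.4% of the 287 had the same direction, against 93.0% with the sum.

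In pregnant heifers 2.39% of all transcripts were called as lower and 2.26% as higher at day 16. Of the cyclic falling set, 111 (55.0%) were called as lower, and of the rising set 29 (34.1%) were called as higher. Calls were shared more often among large falls: 24 of the 30 falling transcripts over 4-fold were called in pregnant heifers, 51 of 82 between 2- and 4-fold and 36 of 90 under 2-fold. For the rising transcripts these were 5 of 10, 19 of 36 and 5 of 39. Of the falling transcripts kept with the run letter, 73 of 104 were called in pregnant heifers, and of those not kept, 38 of 98. For the rising ones these were 12 of 26 and 17 of 59. The kept transcripts also had larger changes, with medians of -1.46 against -0.83 for the falling and 1.62 against 0.94 for the rising ones. The fit with the run letter included the pregnant heifers, so the 2 calls are not independent.

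At the level of the whole set, the pregnant heifers separated by day without overlap. Over the falling set they ran from 5.70 to 6.11 log2 CPM at day 13 and from 4.86 to 5.13 at day 16. Over the rising set they ran from 4.43 to 4.71 at day 13 and from 4.92 to 5.63 at day 16. ENSBTAT00000005988 went from 3016 to 1254 CPM in pregnant heifers (change of -1.27 on the log2 scale, SE 0.18, adjusted p = 8.90e-05 by edgeR) and ENSBTAT00000004084 from 0.752 to 25.2 CPM (4.79, SE 0.88, adjusted p = 0.00265 by edgeR). ENSBTAT00000009998 also rose there (0.60, SE 0.17, adjusted p = 0.0473 by edgeR), while ENSBTAT00000020274 did not pass (-2.46, SE 0.87, adjusted p = 0.114 by edgeR). None of the 4 passed the direct test of the difference between cyclic and pregnant heifers, with edgeR adjusted p from 0.587 to 0.933.

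**Figure D5:**
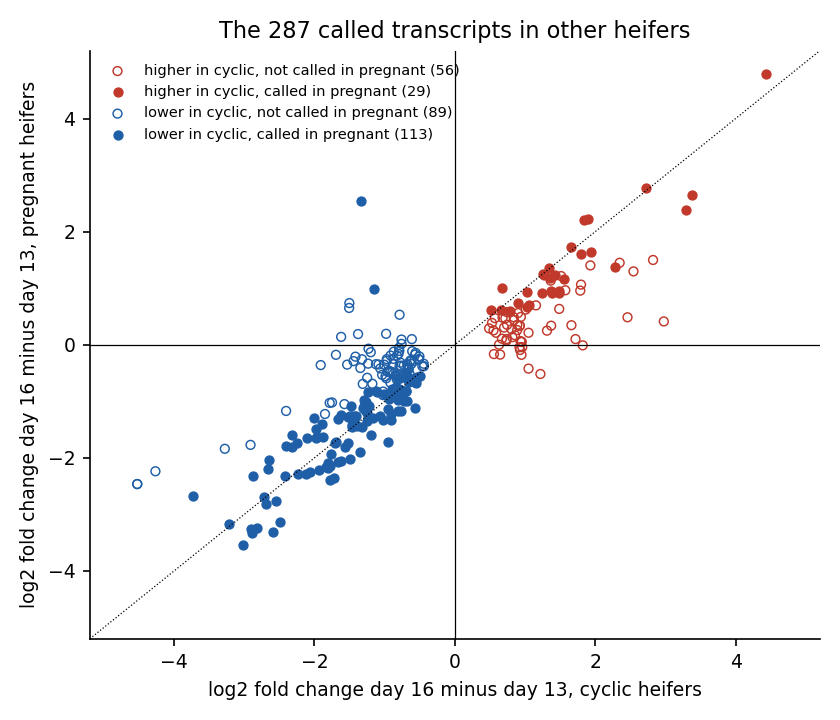
Log2 fold change between days in pregnant heifers (y) against cyclic heifers (x) for the 287 transcripts called in cyclic heifers; filled points were also called in pregnant heifers, and the dotted line marks equality. Most points lie in the quadrants of equal sign, and 2 falling transcripts were called as higher in pregnant heifers.

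A different change in pregnant heifers was found, by the direct test of the difference, for 5 of the 287 transcripts, all of them falling in cyclic heifers. Over all 14807 transcripts 65 passed this test (0.439%). In the first, cyclic heifers had 11.2 to 21.5 CPM at day 13 and 4.29 to 6.56 CPM at day 16, while pregnant heifers had 8.61 to 19.01 CPM and then 47.8 to 110 CPM. Its log2 fold change was -1.34 (SE 0.27) in cyclic and 2.53 (SE 0.23) in pregnant heifers, and the difference had an edgeR adjusted p of 9.63e-07. In the other 4 the change was -1.50, -1.51, -1.14 and -0.79 in cyclic heifers and 0.74, 0.65, 0.99 and 0.53 in pregnant heifers, with edgeR adjusted p of the difference from 0.00204 to 0.00934. At day 13 their means were 26.79, 39.75, 42.36 and 135.8 CPM in cyclic and 11.03, 17.36, 27.2 and 82.26 CPM in pregnant heifers. At day 16 the means were 9.401, 13.98, 19.15 and 78.83 CPM in cyclic and 18.31, 27.16, 55.63 and 118.6 CPM in pregnant heifers. Pregnant heifers were thus lower at day 13 and higher at day 16, untested for either day alone. The groups did not overlap at day 13 for those at -1.50 and -1.51, and at day 16 for those at -1.14 and -0.79. Only the first and the one at 0.99 were called as higher in pregnant heifers by themselves. The cyclic change that chose these transcripts is part of the difference, so the test is not independent of the choice.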

How the data were processed

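The deposited files held raw read counts per transcript identifier, 1 file per library, as the authors made them from single-read Illumina libraries, per the labels' protocols. Of the software, only CASAVA appears in the submitters' processing notes, without version or role. The aligner, counting program, annotation, genome build and use of strand were not given in the sources used here, so counts of overlapping transcripts or close paralogues are uncertain. Identical counts in every heifer were shared by 2 of the falling identifiers, which stand for 1 measurement; ENSBTAT00000020274 is one of them. Some other called identifiers had similar abundance and change, such as falling ones at 236 and 237.4 CPM with -0.61 and -0.63. Whether such identifiers share part of their reads was not tested, and each was counted separately.

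The fit used all 20 heifers in 4 group means, so that all groups shared 1 estimate of spread. The 2 libraries of pregnant heifer 12 were summed. Transcripts were kept by filterByExpr (minimum count 10, minimum total 15), scaled with TMM factors and tested with edgeR 4.0.16 (robust quasi-likelihood, R 4.3.3). P-values were adjusted by Benjamini-Hochberg over all 14807 transcripts. CPM used TMM factors, and log2 CPM a prior count of 2. SE is the fold change divided by the root of F. Heifer numbers are not shared between groups, so samples were unpaired. Each sample in the fit is 1 heifer. The test sets the change between days against the spread between heifers within groups, estimated over all 4 groups. No molecular identifiers are described, so floors and intervals cover counting error only. DESeq2 1.42.0 and limma voom 3.58.1 were alternatives.

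With no gene names, 4 identifiers were taken: per direction, the called transcript of largest fold with at least 1 CPM in the higher day and no overlap, and the one with the highest mean CPM in the higher day. The comparison, sets and classes were chosen with earlier results of these data known. The gene lists and markers that had been set out could not be used.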

Additional observations from a re-analysis of the deposited data

Results flagged for a closer look

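In 24 sets of 5 heifers (4 identified transcripts and the mean levels of the rising and falling sets, in each of 4 groups), 5 values lay at a wide gap from the other 4. Independent values of normal spread would give such a gap in about 1 in 20 sets. Some of these CPM values lay near the floor, where that rate need not hold. Cyclic day 13 heifer 13 had 4.10 CPM of ENSBTAT00000004084, against 0 to 0.802 CPM in the others. Pregnant day 16 heifer 6 had 76.4 CPM of the same transcript, against 6.35 to 20.3 CPM. Pregnant day 16 heifer 4 had 1.88 CPM of ENSBTAT00000020274, which is 5 counts, against 0 to 0.177 CPM. Cyclic day 13 heifer 18 had 2204 CPM of ENSBTAT00000005988, against 3130 to 3415 CPM. For the rising set, the mean log2 CPM of cyclic day 16 heifer 3 was 5.70, against 5.40 to 5.48.

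The change between days differed between cyclic and pregnant heifers for 5 of the 287 called transcripts, by the direct edgeR test of the difference, against 65 of all 14807 (0.439%). The cyclic change that chose the 287 is part of that difference.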

How the results depend on the processing

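The 85 higher and 202 lower calls of cyclic heifers stayed within 1.5 times under RLE factors, library totals, limma voom, no filter, a filter of 1 CPM in 5 of the 10 cyclic heifers (which kept more transcripts), no robust estimation, either library of pregnant heifer 12 alone, and a fit of the 10 cyclic heifers alone. That compares numbers of calls, not which transcripts were called. Of the 287, 200 recurred in the 10 cyclic heifers alone (56 rising and 144 falling). With limma voom 219 recurred, and in the rest of these settings 255 to 287. Higher and lower calls were 173 and 312 with DESeq2. With the run letter as a term they were 28 and 107, and 28 and 109 without the run D heifer. They were 45 and 121 in runs A and C, 38 and 112 with run D joined to run C, and 63 and 128 without heifer 5. In cyclic heifers alone the term gave 140 and 241, 150 of them among the 287. Within runs A and C of these heifers it gave 198 and 358, 175 of them among the 287. Run B held cyclic heifers of the earlier day only, so its heifers, heifer 5 among them, entered neither contrast. Both contrasts thus rested on 1 heifer of the earlier day in each of runs A and C. Fewer groups also set the spread there, and the cause of the higher counts was not tested. Calls of at least 2-fold numbered 46 and 112, and of at least 4-fold 10 and 30. Leaving out 1 cyclic heifer at a time gave 48 to 184 higher and 120 to 269 lower calls. Joining run D, leaving out heifer 5 with the term, the cyclic heifers of runs A and C, and the settings for pregnant heifers were chosen after seeing the data. ENSBTAT00000009998 lost its call in 5 of 27 alternatives, all with the run letter; its adjusted p ranged from 0.00170 to 0.164. The other 3 kept theirs in every alternative that tested them, 27 each for ENSBTAT00000004084 and ENSBTAT00000005988 and 23 for ENSBTAT00000020274, which filters removed in the rest.

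No paired analysis was possible because no heifer number is shared between the groups. At these depths, changes under 2-fold in transcripts under 20 CPM were seldom called.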
